A study of Mus musculus with 16 samples.

Results

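The tumour necrosis factor (TNF) superfamily comprises the ligands Tnf, Lta, Ltb, Fasl and the Tnfsf genes and the receptors Ltbr, Fas, Cd40 and the Tnfrsf genes. Members were taken as the array genes whose name is one of these or starts with Tnfsf or Tnfrsf and a digit. They numbered 38 of 28034 gene names on the array, 15 ligands and 23 receptors, read by 54 probes. Expression had been measured in nonparenchymal liver cells of c129/S3 mice, sorted with antibodies to 2 surface antigens, MIC1-1C3 (written M) and CD133 (written 133). The M+133+ samples carried both antigens and the M-133- samples neither. Untreated mice ate a standard diet, and the other mice ate the same kind of diet with 0.1% DDC for 2 weeks, an agent that injures bile ducts and brings on a ductular reaction. M+133+ untreated cells had 4 samples, M-133- untreated cells 2, M+133+ DDC cells 4 and M-133- DDC cells 4, on 16 arrays in all. The first M+133+ untreated sample and the second of the M-133- untreated group had 2 arrays each, which were averaged. The labels call the 14 samples biological replicates and do not say whether each came from its own mouse, so p-values measure the spread between these samples.

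Ligands of this superfamily are mostly trimers on the cell surface or shed from it, and each binds one or a few receptors. Receptors with a death domain, such as Tnfrsf1a and Fas, can start caspase activation, while most others bind TRAF adaptors and activate NF-kB. Decoy receptors bind ligand without signalling. In the liver, Fas and Tnfrsf1a are known for hepatocyte death, and Tnfsf12 (TWEAK) with its receptor Tnfrsf12a (Fn14) for growth of ductular progenitor cells.

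All levels are log2 intensities relative to the 75th percentile of the array, so a level of 0 equals that percentile, and they compare samples for 1 probe but not one probe with another. That percentile ran from 602.8 to 2732 intensity units over the arrays, lowest in M-133- untreated sample 1, and 60.3% to 77.3% of spots were well above background by the scanner software. The number of arrays limits the precision, and M-133- untreated cells had 2 samples. Of 10 bile duct markers, 9 were higher in M+133+ than in M-133- cells both in untreated livers and after DDC. A gene was called where limma's adjusted p over the 23282 genes tested was under 0.05. Of the 38 members, 36 were tested. Tnfsf4 (OX40L) and Tnfsf8 (CD30L) were not, because their probes were well above background in too few samples. Of those tested, 21 were well above background in all 14 samples. The median range of a tested member over the 14 samples was 5.18 on the log2 scale, beside 4.60 for all genes tested.

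**Figure D1:**
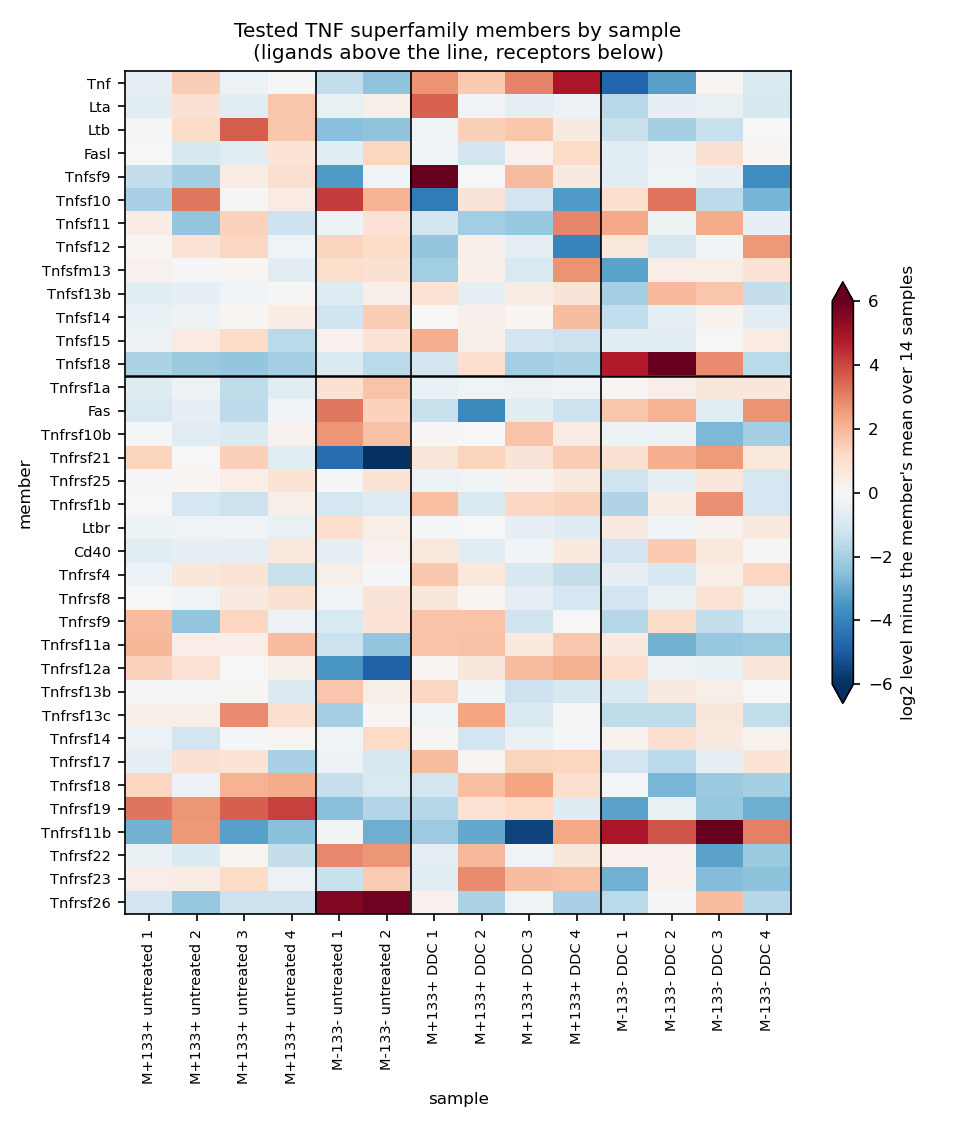
Level of each of the 36 tested members in each of the 14 samples, as the log2 level minus that member's mean over the samples (colour), with ligands above the line and receptors below. Tnfrsf21 and Tnfrsf12a are lowest and Tnfrsf26 is highest in the 2 M-133- untreated samples, and Tnfrsf11b is high in the 4 M-133- DDC samples.

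The sort comparison in untreated livers asked how M+133+ cells differ from M-133- cells before injury. Of the 36 members tested, 4 were higher and 2 lower in M+133+ cells, where 3.63% and 5.17% of all genes tested were higher and lower (8.80% in either direction). The receptors Tnfrsf21, Tnfrsf19 and Tnfrsf12a and the ligand Ltb were higher, by 4.05 to 6.92 on the log2 scale. The receptors Tnfrsf1a and Tnfrsf26 were lower. The groups did not overlap for 17 members, where 33.7% of all genes did not, and 12 members had an unadjusted p under 0.05, where 19.5% of all genes had. The median difference was -0.11 for the members and -0.07 for all genes tested. Values in these bulk samples cannot tell apart fewer cells of a type and less RNA per cell.

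Tnfrsf12a and Tnfrsf21 shared a pattern over the 4 groups: a low level in M-133- untreated cells only. Their promoters are shown because both moved together. The 250 bases before the start site are from RefSeq (GRCm38.p6), 5′ to 3′ on the strand of the gene, at chr17:23677450-23677699 on the minus strand for Tnfrsf12a and at chr17:43016305-43016554 on the plus strand for Tnfrsf21.
Tnfrsf12a: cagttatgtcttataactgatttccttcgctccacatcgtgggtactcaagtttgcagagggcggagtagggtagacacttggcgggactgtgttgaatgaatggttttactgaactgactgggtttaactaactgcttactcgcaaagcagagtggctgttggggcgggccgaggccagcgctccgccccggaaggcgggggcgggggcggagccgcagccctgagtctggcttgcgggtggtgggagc
Tnfrsf21: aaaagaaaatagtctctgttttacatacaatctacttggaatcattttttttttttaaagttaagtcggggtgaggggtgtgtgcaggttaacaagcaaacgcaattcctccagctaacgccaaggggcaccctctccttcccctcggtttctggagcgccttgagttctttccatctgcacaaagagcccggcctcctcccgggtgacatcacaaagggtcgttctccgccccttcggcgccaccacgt
These windows held no match, on either strand, to the kappaB motif bound by NF-kB or to the AP-1 motif TGANTCA, so they are in lower case throughout. Their GC content was 58.8% and 50.4%, beside a median of 52.4% over the 32851 promoter windows.

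Tnfrsf12a encodes Fn14, the receptor of TWEAK, and its probe lies on chromosome 17 (mm9, 23812746 to 23812805). Its level was 3.61, 3.08, 2.20 and 2.51 in the M+133+ untreated samples and -1.24 and -2.62 in the M-133- untreated samples. After DDC it was 2.36, 2.88, 4.08 and 4.38 in M+133+ cells and 3.21, 1.92, 1.83 and 2.95 in M-133- cells. Both M-133- untreated samples therefore lay below all other samples, while the 2 sorts overlapped after DDC. The sort difference was 4.78 in untreated livers (SE 0.67, adjusted p = 0.000473 by limma) and 0.95 after DDC (SE 0.55, adjusted p = 0.305). The difference of these differences was -3.83 and did not pass the test (SE 0.87, adjusted p = 0.0997).

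Tnfrsf21 encodes death receptor 6, and its probe lies on chromosome 17 (mm9, 43225456 to 43225513). The M+133+ untreated samples stood at 1.52, 0.19, 1.63 and -0.45 and the M-133- untreated samples at -4.39 and -8.01, the last not well above background. After DDC the levels were 0.92, 1.55, 0.96 and 1.72 in M+133+ cells and 1.10, 2.35, 2.76 and 0.83 in M-133- cells. Again the M-133- untreated samples lay apart, and the 2 sorts overlapped after DDC. The sort difference was 6.92 in untreated livers (SE 0.95, adjusted p = 0.000405), and -0.47 after DDC (SE 0.77, adjusted p = 0.761). A second probe of the same transcript gave 6.38 in untreated livers, and the other one, of a different transcript and above background in 8 samples, gave 0.59.

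Slides 2 and 4 held both sorts of untreated cells, with 1 array of each. Their M-133- arrays were the 2 repeat arrays of M-133- untreated sample 2, so values within these slides rest on 1 M-133- sample. The difference of Tnfrsf12a was 5.95 on slide 2 and 5.27 on slide 4. That of Tnfrsf21 was 10.32 and 6.80. Neither of these 2 M-133- arrays had Tnfrsf21 well above background, so the size is loosely known. All 25 alternatives of normalization, filter, block and left-out sample kept both calls, with Tnfrsf21 at 3.70 to 8.73.

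**Figure D2:**
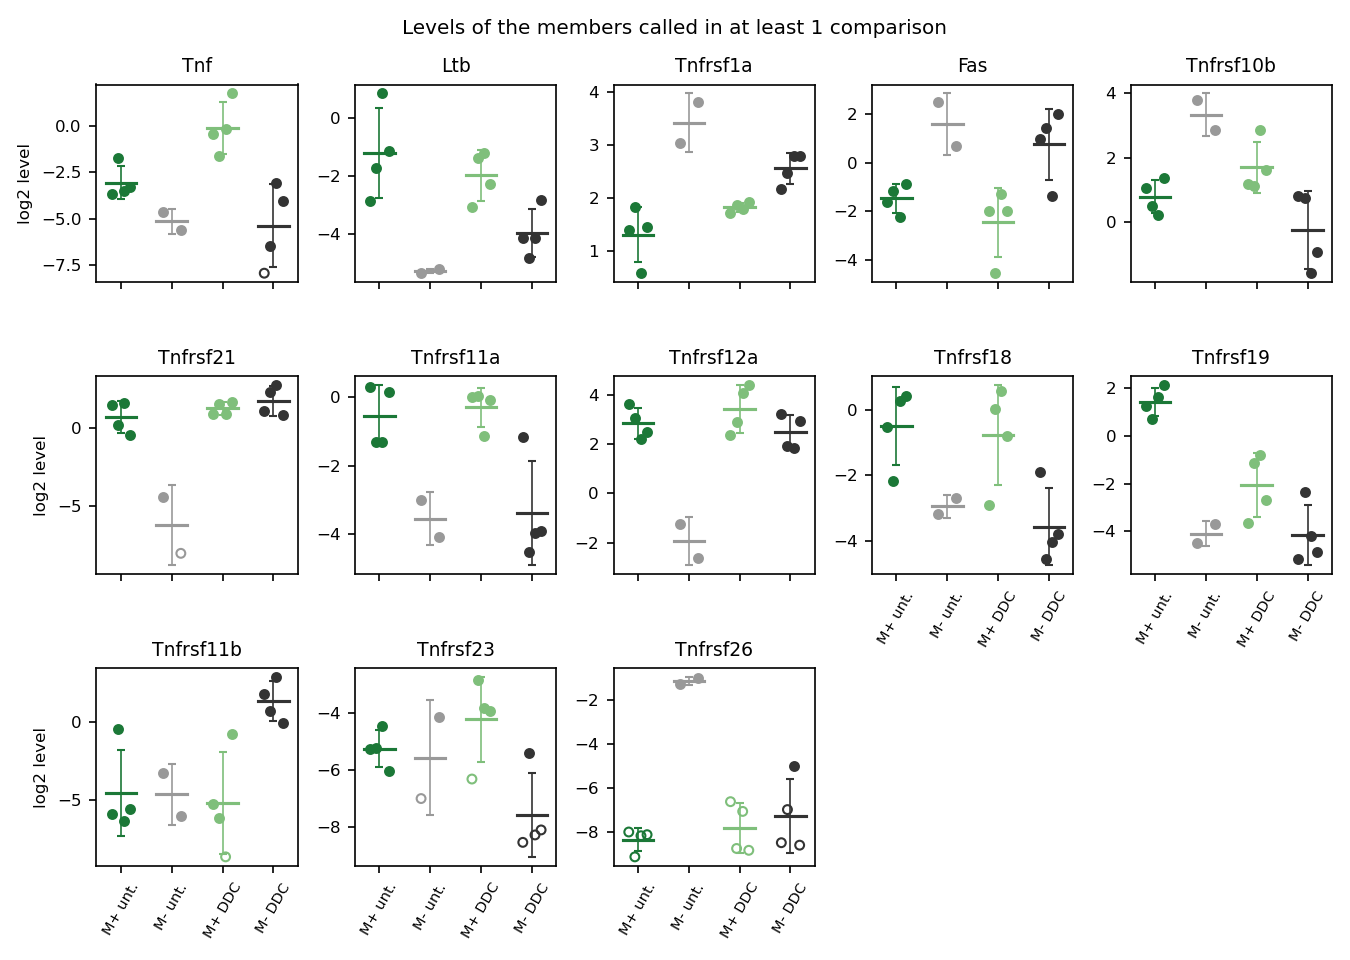
Log2 level of the 13 members called in at least 1 comparison, by group (M+ and M- for M+133+ and M-133-, unt. for untreated), with 1 point per sample, open where it was not well above background. Horizontal lines are group means and bars are SD, each panel having its own scale; in Tnfrsf12a and Tnfrsf21 the M-133- untreated group alone lies low, and in Tnfrsf26 it alone lies high.

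Tnfrsf19 (TROY), a receptor linked to Wnt signalling and tissue stem cells, has its probe on chromosome 14 (mm9, 61582948 to 61583007). It stood at 1.24, 0.72, 1.65 and 2.13 in M+133+ untreated cells and at -4.48 and -3.71 in M-133- untreated cells. After DDC it was -3.65, -1.13, -0.80 and -2.68 in M+133+ cells and -5.18, -2.35, -4.20 and -4.86 in M-133- cells. The M+133+ untreated samples were thus the highest of all 14. The sort difference in untreated livers was 5.53 (SE 0.97, adjusted p = 0.00218), with 5.52 and 5.25 within slides 2 and 4, against that 1 M-133- sample. It kept its call under all 25 alternatives (3.61 to 5.92). A second, dimmer probe of Tnfrsf19 gave 1.70 and was well above background in 2 samples.

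Ltb, lymphotoxin beta, anchors lymphotoxin alpha at the cell surface as a ligand of Ltbr. Its probe lies on chromosome 17 (mm9, 35333097 to 35333156), 3.70 kb from that of Tnf, and the Lta probe lies 3.48 kb beyond Tnf. Its levels were -2.84, -1.71, 0.84 and -1.13 in M+133+ untreated cells and -5.32 and -5.20 in M-133- untreated cells, with no overlap. After DDC they were -3.07, -1.38, -1.20 and -2.26 against -4.13, -4.80, -4.13 and -2.82, and 1 M-133- sample reached into the M+133+ range. The difference was 4.05 in untreated livers (SE 0.97, adjusted p = 0.0168) and 1.99 after DDC (SE 0.79, adjusted p = 0.122). The untreated call was lost without M-133- untreated sample 1 (3.99, adjusted p = 0.129) or sample 2 (4.11, adjusted p = 0.0955), and with normexp background correction (2.08, adjusted p = 0.139). It was also lost with a fixed slide term (3.29, adjusted p = 0.139), and with the replicate number as a block (3.45, adjusted p = 0.0594). Within slides 2 and 4, against M-133- untreated sample 2 alone, the difference was 1.11 and 4.64.

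The Ltb promoter is shown because it holds a kappaB match, in capitals, which starts 87 bases before the start site. The window is chr17:35194257-35194506 (RefSeq, GRCm38.p6, plus strand).
Ltb: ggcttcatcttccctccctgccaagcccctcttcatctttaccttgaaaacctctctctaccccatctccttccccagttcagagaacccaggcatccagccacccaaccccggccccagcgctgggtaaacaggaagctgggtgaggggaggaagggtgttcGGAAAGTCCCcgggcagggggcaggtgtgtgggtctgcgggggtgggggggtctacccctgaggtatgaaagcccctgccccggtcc
RefSeq promoters were matched for 30 of the 38 members, in 34 windows. The kappaB motif was found in 3 of these windows (Ltb, Tnfrsf8 and Tnfrsf9, the last with 2 overlapping matches), and in 3.90% of all 32851 windows. AP-1 was found in 5 (Fas, Tnfrsf8, Tnfrsf9, Tnfsf13b and Tnfsf14), and in 6.75% of all windows. Both strands were searched.

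Tnfrsf1a, the main death domain receptor of Tnf, has its probe on chromosome 6 (mm9, 125312376 to 125312435). It was at 1.39, 1.83, 0.58 and 1.44 in M+133+ untreated cells and at 3.04 and 3.82 in M-133- untreated cells. After DDC it was 1.71, 1.86, 1.79 and 1.93 against 2.17, 2.47, 2.80 and 2.80. The 2 sorts did not overlap in either treatment. The difference was -2.12 in untreated livers (SE 0.45, adjusted p = 0.00849) and -0.74 after DDC (SE 0.37, adjusted p = 0.229). Without M-133- untreated sample 2 the untreated difference was -1.73 (adjusted p = 0.122). Within slides 2 and 4, whose M-133- arrays are both of that sample, it was -2.25 and -2.74.

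Tnfrsf26 is a mouse receptor gene without a clear human counterpart, and lies beside Tnfrsf22 and Tnfrsf23 on chromosome 7, with no other coding gene between them in RefSeq. Their probes lie 29.4 and 31.0 kb apart (Tnfrsf26 probe, mm9, 150793990 to 150794049). Tnfrsf26 stood at -1.29 and -1.03 in the M-133- untreated samples. In M+133+ untreated cells no array had it well above background, with signals of -7.99, -9.11, -8.16 and -8.11. It was at least 56.0-fold lower there (adjusted p = 0.000564), a bound set on each array by the lowest signal among probes well above background or, where higher, the probe's own. After DDC it was not well above background in any M+133+ sample (-6.62, -8.74, -7.06 and -8.82), and of the M-133- samples (-8.47, -6.97, -4.99 and -8.59) the third alone was. The untreated sort call was kept under all 25 alternatives. However, Tnfrsf26 entered the test only through the M-133- untreated group, where it was high. Both its calls set that group against groups near background, so their p-values are not independent of how it entered.

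Tnfrsf22, a decoy receptor of TRAIL, was at 1.17 and 0.91 in M-133- untreated cells and at -2.13, -2.54, -1.54 and -3.13 in M+133+ untreated cells. After DDC it was -2.32, 0.22, -1.88 and -1.06 in M+133+ cells and -1.46, -1.44, -4.95 and -3.97 in M-133- cells. The 2 M-133- untreated samples were the highest of all 14, as for Tnfrsf26. Neither its sort difference in untreated livers (-3.38, SE 1.04, adjusted p = 0.0588) nor its difference with DDC in M-133- cells (-4.00, SE 1.04, adjusted p = 0.0933) was called. The sort difference was called under 8 of 25 alternatives, among them quantile normalization (-3.58, adjusted p = 0.0332) and normexp (-3.04, adjusted p = 0.0330).

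Endothelial markers were also highest in the M-133- untreated samples. The summed linear level of 10 endothelial markers was 333 to 526 there, 13.6 to 104 in M-133- DDC cells and 1.35 to 14.7 in all M+133+ samples. All 10 were lower in M+133+ untreated cells. Their part in the levels of Tnfrsf26 and Tnfrsf22 was not tested.

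The sort comparison after DDC asked the same of the injured liver. Of 36 members, 4 were higher and 2 lower in M+133+ cells, where 6.43% and 6.48% of all genes tested were higher and lower (12.9% in either direction). The ligand Tnf and the receptors Tnfrsf11a, Tnfrsf18 and Tnfrsf23 were higher, and Fas and Tnfrsf11b lower. The groups did not overlap for 7 members, where 14.7% of all genes did not, and 14 had an unadjusted p under 0.05, where 25.8% of all genes had. The median difference was 0.36 for the members and 0.31 for all genes tested. No slide held both sorts of DDC cells, and a fit with a fixed slide term, in which the sorts are linked by untreated arrays alone, ended 5 of the 6 calls.

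Tnf, the ligand of Tnfrsf1a and Tnfrsf1b, was read by 1 probe on chromosome 17 (mm9, 35336795 to 35336854), with repeat spots on each array. After DDC its level was -0.46, -1.61, -0.18 and 1.74 in M+133+ cells and -7.93, -6.45, -3.05 and -4.05 in M-133- cells, the first of these not well above background. Untreated, it was -3.69, -1.71, -3.51 and -3.30 in M+133+ cells and -4.65 and -5.61 in M-133- cells. In neither treatment did the sorts overlap, and the 4 M+133+ DDC samples were the highest of all 14. The sort difference was 5.24 after DDC (SE 1.02, adjusted p = 0.00291) and 2.08 untreated (SE 1.25, adjusted p = 0.422). With a fixed slide term the DDC value was 4.35 (adjusted p = 0.130). Macrophage markers, of a cell type known to make Tnf, summed to 0.504 to 13.6 in M+133+ DDC cells and to 6.05 to 25.3 in M-133- DDC cells. These ranges overlap, and the part of macrophages in the level of Tnf was not tested.

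Tnfrsf11a (RANK), the receptor of RANKL, is read on chromosome 1 (mm9, 107743752 to 107743811). It was 0.01, 0.03, -1.15 and -0.09 in M+133+ DDC cells and -1.16, -4.53, -3.97 and -3.90 in M-133- DDC cells. Untreated, it was 0.30, -1.30, -1.30 and 0.16 against -3.01 and -4.09. The sorts did not overlap in either treatment, although after DDC the lowest M+133+ and the highest M-133- sample were close. The difference was 3.09 after DDC (SE 0.77, adjusted p = 0.0144) and 3.01 untreated (SE 0.94, adjusted p = 0.0628). The 2 arrays of M-133- untreated sample 2 gave -7.28 and -0.91, so its mean of -4.09 is loosely known. The DDC call was kept under all 25 alternatives, with 6.70 under a fixed slide term. That term links the DDC sorts through untreated arrays, these 2 discordant ones among them, so the 6.70 is loosely known too. A dimmer probe gave 3.37 after DDC but 0.28 in untreated livers. The ligand of this receptor, Tnfsf11, was well above background in 6 samples and not called.

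Tnfrsf18 (GITR), a costimulatory receptor of T cells, was -2.89, 0.02, 0.57 and -0.81 in M+133+ DDC cells and -1.88, -4.55, -4.03 and -3.78 in M-133- DDC cells, which overlapped. Untreated, it was -0.53, -2.17, 0.26 and 0.42 against -3.18 and -2.70, without overlap. The DDC difference of 2.78 (SE 0.86, adjusted p = 0.0465) was near the threshold, and 19 of 25 alternatives ended the call. These included leaving out any 1 of M+133+ untreated samples 1, 3 and 4, either M-133- untreated sample, or samples 2, 3 and 4 of either DDC group (adjusted p 0.0533 to 0.130, with 2.33 as the lowest difference). The probe lies on chromosome 4 (mm9, 155402849 to 155402908), 12.2 kb from that of Tnfrsf4 (OX40), which was not called in any comparison.

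Tnfrsf23, another decoy receptor of TRAIL, was -6.33, -2.84, -3.83 and -3.92 in M+133+ DDC cells, the first not well above background. Of the M-133- DDC samples, at -8.55, -5.40, -8.29 and -8.11, the second alone was well above background, and it lay above the lowest M+133+ sample. Untreated levels were -5.27, -5.23, -4.48 and -6.03 against -7.01 and -4.15, which overlapped. The DDC difference of 3.36 (SE 0.94, adjusted p = 0.0280) was lost under 9 of 25 alternatives, among them normexp (1.29, adjusted p = 0.108), quantile normalization (2.98, adjusted p = 0.0552) and a fixed slide term (3.90, adjusted p = 0.191). Leaving out any 1 of M+133+ DDC samples 2, 3 and 4 or M-133- DDC samples 1, 3 and 4 ended it too (2.89 to 3.25, adjusted p 0.0657 to 0.0786).

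Fas, the death receptor of Fas ligand, is read on chromosome 19 (mm9, 34383733 to 34383792). It was -2.00, -4.56, -1.30 and -1.99 in M+133+ DDC cells and 0.97, 1.43, -1.36 and 2.00 in M-133- DDC cells, where the third M-133- sample lay just below the highest M+133+ sample. Untreated, it was -1.60, -1.15, -2.25 and -0.86 against 2.49 and 0.69, without overlap. The difference was -3.22 after DDC (SE 0.85, adjusted p = 0.0200) and -3.05 untreated (SE 1.04, adjusted p = 0.0907). A probe of another Fas transcript gave -4.41 and -4.01. The DDC call was lost without M+133+ DDC sample 2 (-2.52, adjusted p = 0.0564), M-133- DDC sample 2 (-3.00, adjusted p = 0.0511) or M-133- DDC sample 4 (-2.81, adjusted p = 0.0601), and with a fixed slide term (-2.60, adjusted p = 0.274). Hepatocyte markers summed to 238 to 680 in M-133- and to 51.4 to 117 in M+133+ samples, and their part in the level of Fas was not tested. Fasl, the ligand itself, was between -5.60 and -3.23 in all 14 samples and was not called.

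Tnfrsf11b encodes osteoprotegerin, a secreted decoy of RANKL and TRAIL, and its probe lies on chromosome 15 (mm9, 54082760 to 54082819). It was 1.85, 0.71, 2.91 and -0.02 in M-133- DDC cells and -5.25, -6.11, -8.63 and -0.73 in M+133+ DDC cells, the third of which was not well above background. Untreated, it was -5.90, -0.44, -6.29 and -5.55 in M+133+ and -3.23 and -6.00 in M-133- cells. The M-133- DDC samples were the highest of all, but M+133+ untreated sample 2 and M+133+ DDC sample 4 lay close below the lowest of them and far above the rest of their groups. The sort difference after DDC was -6.54 (SE 1.55, adjusted p = 0.0109), and -5.92 with a fixed slide term (adjusted p = 0.208). Its rise with DDC in M-133- cells, 5.98, was not called (SE 1.90, adjusted p = 0.176). Markers of stellate cells and fibroblasts, known makers of osteoprotegerin, summed to 126 to 313 in M-133- DDC cells, 48.8 to 81.9 in M-133- untreated cells and 3.62 to 18.3 in M+133+ samples. Their part in this difference was not tested.

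**Figure D3:**
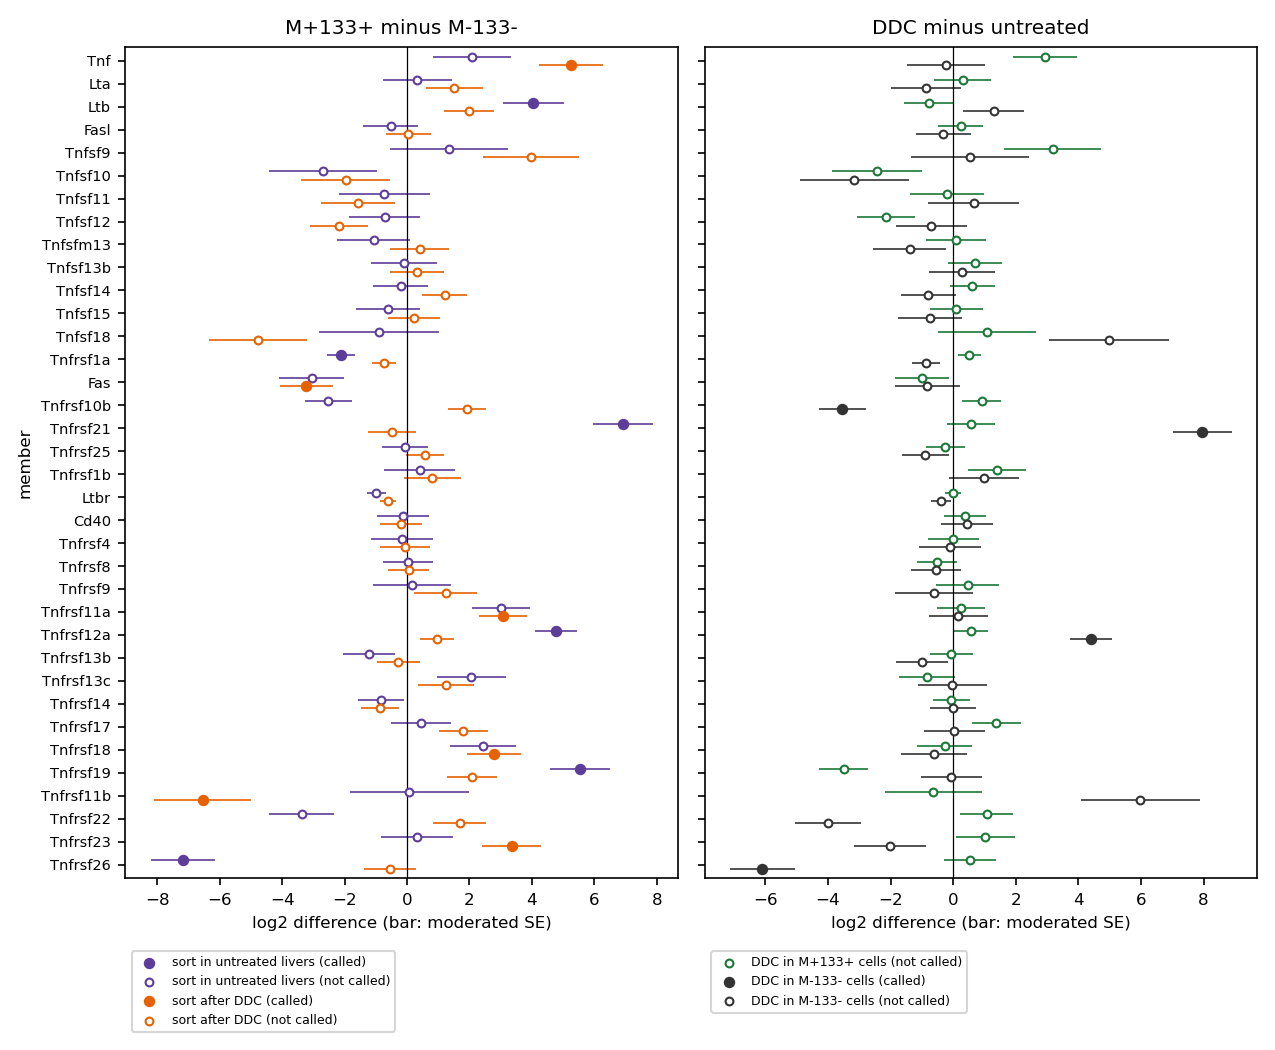
Log2 differences of the 36 tested members (points) with moderated SE (bars), filled where called. The left panel gives M+133+ minus M-133- in untreated livers and after DDC, the right panel DDC minus untreated in each sort; no member is filled for DDC in M+133+ cells, and Tnfrsf21 and Tnfrsf12a lie farthest right of the called members for DDC in M-133- cells.

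The effect of DDC on M+133+ cells asked what injury does to the cells that carry both antigens. By limma 0 of 36 members were called, where 0.241% of all genes tested were, and 3 members had an unadjusted p under 0.05 (Tnf, Tnfrsf19 and Tnfsf12), where 12.5% of all genes had. The median difference was 0.24 for the members and 0.06 for all genes tested. Tnf differed by 2.92 (SE 1.02, adjusted p = 0.247), and its 4 DDC samples all lay above the 4 untreated ones. Tnfrsf19 differed by -3.50 (SE 0.79, adjusted p = 0.0837), with all 4 DDC samples below all untreated ones, and was called with quantile normalization (-3.73, adjusted p = 0.0297) and with normexp (-3.16, adjusted p = 0.0433). These were the 2 members whose groups did not overlap, where 8.33% of all genes did not.

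Tnfsf12, which encodes TWEAK, is read on chromosome 11 (mm9, 69499870 to 69499929). Its level was -1.03, -0.35, 0.10 and -1.37 in M+133+ untreated cells and -3.55, -0.87, -1.71 and -5.13 in M+133+ DDC cells, which overlapped. In M-133- cells it was 0.17 and -0.04 untreated and -0.52, -2.14, -1.31 and 1.42 after DDC. Its difference with DDC in M+133+ cells was -2.15 (SE 0.93, adjusted p = 0.357), and no comparison called it. The array also names a Tnfsf12-Tnfsf13 readthrough transcript, Tnfsfm13 in RefSeq, which was not called. Its probe lies 3.21 kb from that of Tnfsf12.

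The effect of DDC on M-133- cells concerned a population defined only by lacking both antigens. Of 36 members, 2 were higher and 2 lower after DDC, where 0.610% and 0.395% of all genes tested were (1.01% in either direction). Tnfrsf21 and Tnfrsf12a rose, and Tnfrsf26 and Tnfrsf10b fell. The groups did not overlap for 10 members, where 19.8% of all genes did not, and 7 had an unadjusted p under 0.05, where 12.9% of all genes had. The median difference was -0.35 for the members and -0.36 for all genes tested. This comparison shares the M-133- untreated samples with the sort comparison in untreated livers, so the low Tnfrsf21 and Tnfrsf12a and the high Tnfrsf26 in those 2 samples enter both.

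Tnfrsf21 rose by 7.96 (SE 0.95, adjusted p = 0.000818), and by 7.60 on the second probe. Within slides 1 and 2, which held both treatments, it rose by 5.48 and 11.31. All 25 alternatives kept the call, with 4.52 to 9.77. The fitted size depends on signals at background, since M-133- untreated sample 2 was not well above it. Tnfrsf12a rose by 4.41 (SE 0.67, adjusted p = 0.00547), by 4.46 and 4.36 within slides 1 and 2. It was at the threshold without M-133- untreated sample 2 (3.72, adjusted p = 0.0507). The authors' deposited table gave Tnfrsf21 as 386-fold and Tnfrsf12a as 23.6-fold higher, at false discovery rates of 4.51% and 5.64%.

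The summed linear level of 10 bile duct markers in M-133- cells also went up, from 1.12 to 2.63 untreated to 12.9 to 55.5 after DDC, beside 163 to 564 in M+133+ samples. Of the 10 markers, Spp1 (osteopontin) and Sox9, a transcription factor of ducts, were called, at 8.78 and 3.33 (adjusted p = 9.4e-05 and 0.0219). The median difference of the 10 was 0.95, far below that of Spp1. A sum of linear levels can be carried by 1 gene with so large a rise, so it does not show that the markers rose together. Stellate cell and fibroblast markers moved over the same samples, from a sum of 48.8 to 81.9 untreated to 126 to 313 after DDC, with 3 of 10 called higher and a median difference of 3.54. The part of either cell type in the rise of the 2 receptors was not tested.

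**Figure D4:**
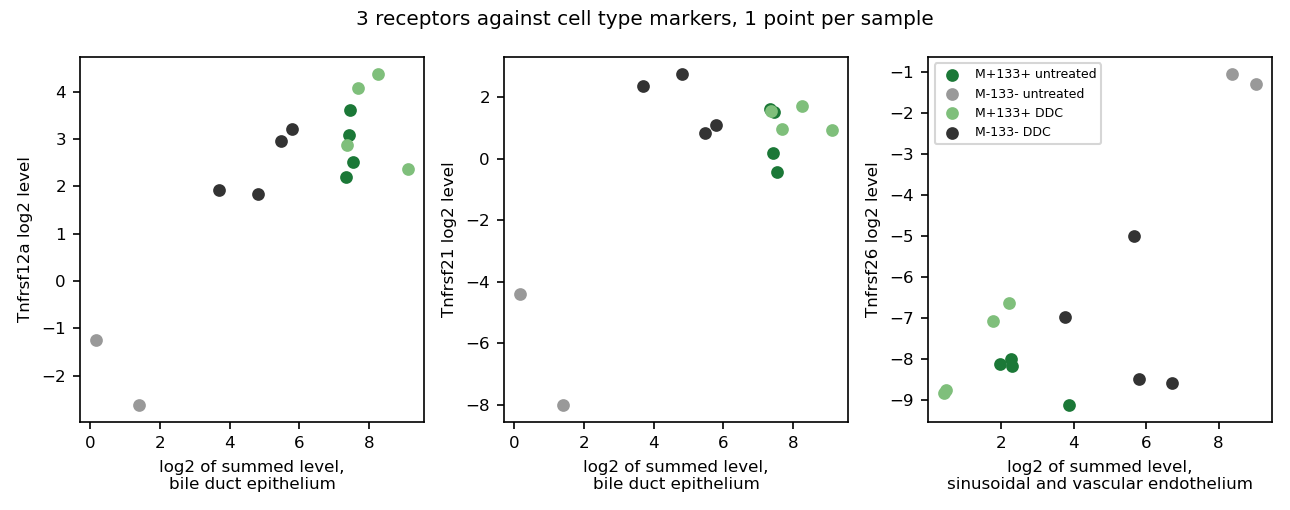
Log2 level of Tnfrsf12a and Tnfrsf21 against the log2 summed linear level of 10 bile duct markers, and of Tnfrsf26 against that of 10 endothelial markers, with 1 point per sample. The duct sum is 1.12 to 2.63 in M-133- untreated, 12.9 to 55.5 in M-133- DDC and 163 to 564 in M+133+ samples. Such a sum can be carried by 1 gene with a large rise, such as Spp1. Both receptors are lowest in the M-133- untreated samples. The 2 M-133- untreated samples alone combine high endothelial markers with high Tnfrsf26.

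Tnfrsf26 fell by 6.10 (SE 1.03, adjusted p = 0.0104), and by 7.19 and 4.90 within slides 1 and 2. The fitted size depends on signals at background, since 3 of the 4 M-133- DDC samples were not well above it. Tnfrsf26 was tested only because of the M-133- untreated group, as given above. The call was lost without M-133- untreated sample 1 (-6.22, adjusted p = 0.0703) or sample 2 (-5.97, adjusted p = 0.0609). The endothelial sum fell over the same samples, as given above. In the authors' deposited table Tnfrsf26 was 52.6-fold lower at a false discovery rate of 9.67%.

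Tnfrsf10b, the signalling receptor of TRAIL in mice, is read on chromosome 14 (mm9, 70177538 to 70177597). It was 3.78 and 2.86 in M-133- untreated cells and 0.82, 0.76, -1.56 and -0.92 in M-133- DDC cells. M+133+ cells were at 1.05, 0.50, 0.24 and 1.38 untreated and at 1.19, 1.14, 2.84 and 1.63 after DDC. The groups did not overlap in the M-133- comparison, which gave -3.55 (SE 0.75, adjusted p = 0.0380). The 2 arrays of M-133- untreated sample 2 were at 5.39 and 0.33, a gap larger than the difference itself. Of the other probes of the same transcript, one gave -4.25 and the other -0.58, and within slides 1 and 2 the value was -2.96 and -0.74.

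The call for Tnfrsf10b was lost under 15 of 25 alternatives, among them only the second repeat array (-2.28, adjusted p = 0.320) and a fixed slide term (-2.34, adjusted p = 0.391). Leaving out M-133- untreated sample 1 gave -3.09 (adjusted p = 0.263) and sample 2 -4.01 (adjusted p = 0.0811). Without M-133- DDC sample 3 or 4 it was -3.10 and -3.32 (adjusted p = 0.0601 and 0.0649), and leaving out any M+133+ untreated sample or M+133+ DDC sample 4, which leaves the difference at -3.55, gave 0.0506 to 0.0606. In the authors' deposited table it was 7.14-fold lower at a false discovery rate of 32.4%. Its sort differences were -2.53 untreated (SE 0.75, adjusted p = 0.0501) and 1.93 after DDC (SE 0.62, adjusted p = 0.0528), neither called. The titles of M+133+ and M-133- samples share a leading code in 6 pairs, and the labels do not give its meaning. With that code as a random block both were called (-2.54, adjusted p = 0.0408, and 1.93, adjusted p = 0.0401). Tnfsf10 (TRAIL), its ligand, was -5.87, -0.78, -3.88 and -3.43 in M+133+ untreated, 0.24 and -1.84 in M-133- untreated, -8.15, -3.17, -5.03 and -7.34 in M+133+ DDC and -2.92, -0.69, -5.51 and -6.73 in M-133- DDC cells. These groups overlapped after DDC, and Tnfsf10 was not called.

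Whether the sort difference itself changed with DDC was tested by the interaction. Of 36 members 1 was called, in the lower direction, where 0.258% of all genes tested were called and 0.198% were in that direction. An unadjusted p under 0.05 was found for 8 members, and for 9.99% of all genes. It was Tnfrsf21, at -7.39 (SE 1.22, adjusted p = 0.0235). Tnfrsf26 was at 6.63 (adjusted p = 0.0570) and Tnfrsf10b at 4.45 (adjusted p = 0.0912). The Tnfrsf21 call was lost with normexp (-3.93, adjusted p = 0.0926), with the mean of its probes (-4.38, adjusted p = 0.256) and with a fixed slide term (-7.82, adjusted p = 0.104). It was lost as well without M+133+ untreated sample 1 (-7.13, adjusted p = 0.0536) or 3 (-7.09, adjusted p = 0.0593), M-133- untreated sample 2 (-5.58, adjusted p = 0.0521) or M+133+ DDC sample 4 (-7.54, adjusted p = 0.0514). The median interaction was 0.41 for the members and 0.38 for all genes tested.

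The other 23 tested members were called in no comparison, and 13 of them were well above background in all 14 samples. Ltbr, the receptor of lymphotoxin, is read on chromosome 6 (mm9, 125256614 to 125256673) and varied little. It was 4.18, 4.23, 4.29 and 4.06 in M+133+ untreated, 5.51 and 4.83 in M-133- untreated, 4.44, 4.50, 3.99 and 3.78 in M+133+ DDC and 5.01, 4.32, 4.72 and 5.08 in M-133- DDC cells. Its sort differences were -0.98 (SE 0.31, adjusted p = 0.0658) and -0.61 (SE 0.25, adjusted p = 0.142). Cd40, a costimulatory receptor of antigen-presenting cells, was -4.60, -4.40, -4.51 and -3.28 in M+133+ untreated, -4.49 and -3.65 in M-133- untreated, -3.29, -4.56, -4.08 and -3.33 in M+133+ DDC and -5.03, -2.36, -3.28 and -3.83 in M-133- DDC cells. Its 4 groups overlapped.

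Among ligands that were not called, Lta, Tnfsf13b (BAFF), Tnfsf14 (LIGHT) and Tnfsf15 stayed within groups that overlapped after DDC. Tnfsf9 (4-1BBL) was 3.86 in M+133+ DDC sample 1 and at or below -2.58 in the other 13 samples. Tnfsf18 (GITRL), the ligand of Tnfrsf18, was -2.16, 2.07 and -4.10 in M-133- DDC samples 1 to 3. The other sample of that group (-8.56) was not well above background, as in all untreated samples. Its sort difference after DDC was -4.77 (SE 1.57, adjusted p = 0.0602). With all samples kept, it was called with quantile normalization (-5.14, adjusted p = 0.0433). The replicate number (adjusted p = 0.0401) or the title's leading code (adjusted p = 0.0437) as a block also gave a call. Tnfsf18 entered the test only through the M-133- DDC group, where it was high. Without sample 4, the low one of that group, the difference was -6.56, a value that rests on leaving out that low sample. The receptors Tnfrsf4, Tnfrsf8, Tnfrsf14 and Tnfrsf25 had no called difference and were well above background in all 14 samples on the probes used. For the sort in untreated livers a dimmer probe of Tnfrsf14 gave -2.66, beside -0.84 on the probe used. These values were -2.63 and -0.06 for Tnfrsf25, and -2.19 and -0.09 for the ligand Tnfsf13b. The B cell receptors Tnfrsf13c (BAFF receptor) and Tnfrsf17 (BCMA) were well above background in 9 and 5 samples. Tnfrsf1b, the second Tnf receptor, had 2 probes that disagreed: the brighter gave 0.40 for the sort in untreated livers and 0.99 for DDC in M-133- cells, the dimmer 3.43 and 3.75.

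By position, 20 members fell into 11 pairs whose probes lie within 250 kb of each other. Besides the groups on chromosomes 7 and 17, these included Tnfrsf1b with Tnfrsf8 and Tnfsf15 with Tnfsf8 on chromosome 4, and Ltbr with Tnfrsf1a on chromosome 6, 55.8 kb apart with 1 coding gene between in RefSeq. In the chromosome 17 group the sort differences in untreated livers and after DDC were 4.05 and 1.99 for Ltb, 2.08 and 5.24 for Tnf and 0.33 and 1.51 for Lta, and none of the 3 passed the test of the interaction (adjusted p = 0.629, 0.545 and 0.833).

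Signalling genes downstream of the receptors were taken as 4 lists, beside a list of superfamily relatives outside the naming rule. None of the 18 genes of death signalling (caspases, their adaptor Fadd and Bcl2 relatives) was called in any of the 5 comparisons, where 8.80%, 12.9%, 0.241%, 1.01% and 0.258% of all genes tested were, so that few or no calls in a list of this size lie near the background. Of 21 adaptors and kinases, Xiap, a caspase inhibitor, was lower in M+133+ untreated cells (-2.28, SE 0.66, adjusted p = 0.0452), a call lost under 15 of 25 alternatives. Of 12 genes of the NF-kB core, Relb, the partner of p52 in the noncanonical pathway, was higher in M+133+ DDC cells (3.30, SE 1.01, adjusted p = 0.0431), lost under 17 of 25. Chuk, which encodes IKK alpha, was lower in M+133+ untreated cells (-3.98, adjusted p = 0.0324). It stood at 5.06 in M-133- untreated sample 1 and at -0.39 in sample 2, and was -1.25 without sample 1 (adjusted p = 0.609). Leaving out any M+133+ untreated sample ended the call too (-4.14 to -3.83, adjusted p 0.0539 to 0.0691).

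Of 22 NF-kB target genes, 2 were higher and 1 lower in M+133+ untreated cells, 1 higher and 5 lower in M+133+ DDC cells, 2 higher with DDC in M+133+ cells and 1 higher with DDC in M-133- cells. Of all genes tested, 8.80%, 12.9%, 0.241% and 1.01% were called in these 4 comparisons. In untreated livers Cxcl5, a neutrophil chemokine, was at 7.48 (SE 1.52, adjusted p = 0.00601), Lcn2, lipocalin 2, at 5.58 (SE 1.02, adjusted p = 0.00302) and Ptgs2, cyclooxygenase 2, at -6.78 (SE 1.73, adjusted p = 0.0233). Without M-133- untreated sample 1 these were 6.58, 4.43 and -7.03 (adjusted p = 0.0976, 0.0739 and 0.133). Ptgs2 was also lost without M-133- untreated sample 2 (-6.52, adjusted p = 0.144) or M+133+ untreated samples 3 or 4 (-6.34 and -6.44, adjusted p = 0.0550 for each).

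After DDC, Il6, interleukin 6, was lower in M+133+ cells by a fitted -8.96 (SE 1.51, adjusted p = 0.00104), and was well above background in 1 of 4 M+133+ and 4 of 4 M-133- samples. Cxcl10, an interferon-induced chemokine, was lower at -3.06 (SE 0.74, adjusted p = 0.0125). Each lost its call under a fixed slide term alone of the 25 alternatives (adjusted p = 0.0800 and 0.169). The others of the 4 with the largest differences were Sele, E-selectin, at -6.15 (adjusted p = 0.0292) and Cxcl5 at 4.10 (adjusted p = 0.0407), lost under 6 and 14 of 25. With DDC, Ccl2, a monocyte chemokine, rose in M+133+ cells by 5.00 (SE 0.81, adjusted p = 0.0201), lost under 7 of 25 (M+133+ untreated samples 1, 3 and 4 and M+133+ DDC sample 4 among them), and Vcam1, an adhesion molecule, by 2.33 (SE 0.36, adjusted p = 0.0201), lost under 5 (M+133+ untreated samples 3 and 4 and M+133+ DDC sample 4 among them). Lcn2 rose in M-133- cells by 9.15 (SE 1.02, adjusted p = 0.000484), a call kept under all 25.

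Of 8 relatives, Ngfr, the p75 neurotrophin receptor, was lower in M+133+ DDC cells (-6.88, SE 0.87, adjusted p = 9.92e-05) and rose with DDC in M-133- cells (5.01, SE 1.06, adjusted p = 0.0376). It also belongs to the stellate cell marker list, whose sum was highest in M-133- DDC cells. The M-133- rise was lost under 13 of 25 alternatives, with 2.83 without M-133- untreated sample 2 (adjusted p = 0.335), and the sort call under 3. Without M-133- DDC sample 1, 3 or 4 the sort values were -0.42, 0.26 and -0.36 (adjusted p = 0.823, 0.871 and 0.839) and the values for DDC -0.06, -0.73 and -0.11 (adjusted p = 0.992, 0.793 and 0.975), since another Ngfr probe was then the brightest.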

How the data were processed

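RNA of sorted liver cells had been amplified to cDNA, labelled with Cy3 and hybridised to 1-colour Agilent arrays, 16 in all for 14 samples. Signal intensities were made with Agilent Feature Extraction 10.5.1.1 and deposited background-subtracted, per the file headers, and the submitters' processing notes name limma. The authors' deposited table gives fold changes and false discovery rates in percent, and is used only where named. Here log2 intensities were scaled to each array's 75th percentile, outlier spots left out, and spots and repeat arrays averaged. A probe was kept if, in at least 1 group, its share of well-above-background spots averaged 0.5 or more, and the brightest kept probe stood for a gene. limma 3.58.1 (R 4.3.3, moderated with an intensity trend) was fitted to all 14 samples for 5 comparisons, with Benjamini-Hochberg adjustment over 23282 genes, two-sided, at 0.05. In simulated data, the shares of genes changed 16-fold and 4-fold that were recovered were 25% and 5% for the sort in untreated livers, 47% and 6% for the sort after DDC, 56% and 10% for DDC in M+133+ cells, 26% and 4% for DDC in M-133- cells and 10% and 0% for the interaction. These shares hold for the simulated data alone. The adjusted p depends on how many genes change, so the shares need not equal the sensitivity of the tests reported. Alternatives changed normalization, background correction, filter, probe choice, block, repeat array, trend or sample, 25 in all. Values in every sample are given for members called in any comparison and for Tnf, Tnfrsf1a, Tnfsf12, Tnfrsf12a, Fas, Ltb, Ltbr, Cd40, Tnfsf10 and Tnfrsf11b, and up to 4 called genes per list and comparison are named by size. Tnfrsf22, Tnfsf9 and Tnfsf18 were added after their values were seen. The members and lists were chosen with earlier results of these data known. Promoters came from RefSeq (GRCm38.p6). Probe positions are on mm9, and which transcript part each probe reads was not analysed here. Deviations from the group mean correlated at -0.15 to 0.08 over 18 pairs of samples with the same replicate number. For the other 54 pairs the range was -0.16 to 0.15. For pairs sharing the title's leading code it was -0.01 to 0.11 over 6 pairs. With so few samples per group these values cannot exclude pairing, and the fit reported used none.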

Additional observations from a re-analysis of the deposited data

Results flagged for a closer look

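In 11 of 108 sets of 4 samples (10.2%), 1 for each of 11 members, the highest or lowest sample lay far from the rest, with a gap to the nearest sample past the critical value of Dixon's test. Chance alone marks about 1 in 20 such sets. Among M+133+ untreated samples, Cd40 was -3.28 in sample 4 (next -4.40), Tnfrsf11b -0.44 in sample 2 (next -5.55), Tnfrsf13b (TACI) -5.93 in sample 4 (next -5.14) and Tnfrsf26 -9.11 in sample 2 (next -8.16), where no array had Tnfrsf26 well above background. Among M+133+ DDC samples, Lta was -0.92 in sample 1 (next -4.66), Tnfrsf11a -1.15 in sample 3 (next -0.09) and Tnfsf14 -2.47 in sample 4 (next -4.04). Among M-133- DDC samples, Tnfrsf13c was -5.11 in sample 3 (next -7.28), Tnfrsf23 -5.40 in sample 2 (next -8.11), the Tnfsf12-Tnfsf13 readthrough Tnfsfm13 -1.49 in sample 1 (next 2.07) and Tnfsf9 -8.17 in sample 4 (next -5.15), not well above background there.

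The sort difference of Tnfrsf21 itself differed between untreated livers and DDC livers, by -7.39 (SE 1.22, adjusted p = 0.0235 by limma). The call was lost under 8 of 25 alternatives, among them the mean of its probes (-4.38, adjusted p = 0.256) and normexp (-3.93, adjusted p = 0.0926).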

How the results depend on the processing

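Of 17 calls of members, 6 were kept under all 25 alternatives (Tnfrsf12a, Tnfrsf19, Tnfrsf21 and Tnfrsf26 for the sort in untreated livers, Tnfrsf11a for the sort after DDC, Tnfrsf21 for DDC in M-133- cells), 11 were lost under some, and none changed direction. The fit with slide as a random block used the first repeat arrays alone. For the sort in untreated livers, 10 members were called (6 in the fit reported) with the first repeat array alone, with or without that block. After DDC 1 was called (of 6) with a fixed slide term, and 1140 of all genes (of 3006). For DDC in M+133+ cells 1 member was called, Tnfrsf19, with quantile normalization or normexp (of 0). The interaction called 0 members (of 1) with normexp, probe means, the fixed slide term or the replicate block. It called 2 without the filter or with the title's leading code as a random block. With the first repeat array alone it also called 2, with or without slide as a random block. Over all genes, DDC in M+133+ cells called 130 with quantile normalization, 86 with probe means, 22 with the slide term, 20 with the replicate block and 22 without the trend (of 56). DDC in M-133- cells called 142 with the slide term and 118 with the replicate block (of 234). The interaction called 38 with normexp, 11 with the slide term, 24 with the replicate block and 37 without the trend (of 60). The causes were not tested. With the replicate block the members called were 6, 6, 0, 3 and 0 in the 5 comparisons, with Ltb lost and Tnfrsf11a gained for the sort in untreated livers, and Tnfrsf18 lost and Tnfsf18 gained for the sort after DDC. Whether the replicate numbers pair samples is not known. Leaving out 1 sample gave 4 to 9 members for the sort in untreated livers, 3 to 7 after DDC (3 without M+133+ DDC sample 2), 0 to 0 for DDC in M+133+ cells, 1 to 4 for it in M-133- cells (2 and 1 without M-133- untreated samples 1 and 2), and 0 to 2 for the interaction. Over all genes it gave 843 to 2215, 2416 to 2954, 6 to 112, 82 to 280 and 18 to 102. Higher against lower calls over all genes were 846 and 1203 for the sort in untreated livers, 1054 and 1082 with quantile normalization, and 529 and 1239 with normexp. For DDC in M-133- cells they were 142 and 92, 161 and 51, and 111 and 158. Members called after DDC split 4 and 2, 2 and 3 with quantile normalization, and 2 and 2 with normexp. Normexp moved the median of all genes to -0.52 for the sort in untreated livers and -0.76 for DDC in M-133- cells. The 2 M-133- untreated samples enter 3 of the 5 comparisons. Sample 1 was dim, and sample 2 had discordant repeat arrays, the first of them dim as well (75th percentile 705.9 intensity units). Tnfrsf26, Tnfrsf23 and Tnfsf18 lie near background in most samples, so their sizes are loosely known.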
